A study of Mus musculus with 6 samples.

Results

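A set of 10 long noncoding RNAs was followed: Malat1 and Neat1, which stay in the nucleus, and Gas5, Snhg1, Snhg3, Snhg5, Snhg6, Snhg8, Snhg12 and Snhg15, which carry small nucleolar RNAs (snoRNAs) in their introns. They were chosen by name through the Ensembl identifiers of GENCODE mouse release M21. Of these 10 genes, 7 were among the 38087 identifiers of the count files, and all 7 passed the filter on low counts, as members of the 16666 genes tested. Snhg1, Snhg6 and Snhg8 were not found under their M21 identifiers and were not analysed here.

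The libraries came from HL-1 cells, an established mouse line of atrial cardiomyocytes derived from a tumour driven by the SV40 large T antigen under an atrial promoter. In 3 libraries the cells had received 100 nM of an siRNA aimed at Circ-INSR, the circular RNA made from insulin receptor transcripts. The other 3 libraries came from cells that had received a scrambled siRNA and serve as control. No dose is labelled for the control siRNA. An effect of the target therefore cannot be told apart from one of a difference in dose. All libraries were made from poly(A)-selected RNA with a directional kit, and raw counts per gene were compared. Such counts do not separate the circular RNA from the linear transcripts of its gene, so the knockdown itself was not checked here. Whether each library stands for its own culture is not labelled, and the p-values below therefore reflect library-to-library spread that could be technical. Levels are in CPM, a gene's counts relative to the library total after TMM scaling.

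Malat1 is an abundant RNA of nuclear speckles, bodies that store splicing factors. Neat1 is the scaffold of paraspeckles, nuclear bodies built on its long isoform together with proteins such as SFPQ, NONO and PSPC1. The Gas5 and Snhg transcripts are spliced hosts whose introns release snoRNAs that guide chemical modification of ribosomal and other RNAs, while many of the spliced remainders are degraded in the cytoplasm by nonsense-mediated decay. Several hosts begin with a pyrimidine tract at the first transcribed base (a 5′ TOP tract), the feature that also marks ribosomal protein mRNAs.

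The 3′ ends matter for what a poly(A)-selected library can capture, so the last 30 bases of the longest annotated Malat1 transcript and of the long and short Neat1 transcripts are shown, with the poly(A) signal AATAAA in capitals. These come from GENCODE M21 transcripts (GRCm38, chromosome 19, minus strand), 5′ to 3′.
Malat1 end: ttttatgaAATAAAaactaaatatctctca
Neat1 long end: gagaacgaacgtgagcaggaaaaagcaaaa
Neat1 short end: tttacagcaaAATAAAggtttgagattgaa
The signal was present at the end of Malat1 (6983 bases; chr19:5795690-5795719) and of the short Neat1 (3004 bases; chr19:5842307-5842336). It was absent from the last 30 bases of the long Neat1 (20771 bases; chr19:5824708-5824737), which end in a stretch rich in A. Of all 141767 GENCODE transcripts, 23.3% held AATAAA in their last 30 bases. Both long transcripts are known to be cut by RNase P and to end in a genomically encoded A-rich stretch rather than a poly(A) tail. The Malat1 bases above are the annotated end and not such a stretch, so they do not show the cut end. Gene counts do not separate the Neat1 isoforms, so a Neat1 value here is the sum of both.

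The 5′ ends are shown because the hosts are known for their pyrimidine tracts. Each line gives 10 bases before the RefSeq start and 20 bases from it on (GRCm38.p6), 5′ to 3′. Capitals mark the longest run of a C followed by at least 4 bases that are each C or T, where one began within 10 bases of the start on the transcribed strand.
Malat1: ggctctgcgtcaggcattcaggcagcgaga
Gas5: ccatctcagCCTTTCggagctgtgcggcat
Snhg3: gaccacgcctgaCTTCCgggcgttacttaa
Snhg5: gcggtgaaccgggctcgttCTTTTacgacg
Snhg12: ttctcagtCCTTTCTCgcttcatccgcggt
Snhg15: ctgtgaccgtaactttaagcacacgtgagc
Gas5 and Snhg12 had such a run overlapping the annotated start, of 6 and 8 bases. Snhg3 and Snhg5 had one of 5 bases that began at base 3 and base 10 of the transcript, and neither Malat1 nor Snhg15 had one. A second, upstream RefSeq start of Gas5 had none. Such a run was found in 30.7% of the 32851 RefSeq promoters searched, and 8 of the 10 genes were in that table. These matches describe letters in a window and do not show where transcription began in these cells.

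Malat1, Neat1 and Snhg15 fell after Circ-INSR siRNA, and Gas5 and Snhg3 rose. Snhg5 and Snhg12 did not pass the test. Neat1 had 0.414 times its control level, Malat1 0.548 and Snhg15 0.547, whereas Gas5 had 1.36 times and Snhg3 1.53 times (edgeR, p adjusted over all genes tested, threshold 0.05). The 2 higher members stand beside 28.5% of all genes called higher, and the 3 lower members beside 28.5% called lower. With 57.0% of all genes called in either direction, the share of members called, 5 of 7, is not by itself a result about these RNAs. The groups did not overlap for 5 of the 7, against 63.3% of all genes. A called log2 fold change at or below -0.8 was found for Malat1, Neat1 and Snhg15 and for 8.06% of all genes. That cut was not planned and lies just short of the values of Malat1 and Snhg15, so it is no test of these RNAs. Over the long noncoding biotypes of GENCODE, 31.7% were called lower and 7.71% higher, at any size of change. Of the genes tested, 5.12% had a larger absolute log2 fold change than Neat1, 12.2% than Malat1, 12.1% than Snhg15 and 32.8% than Gas5. In these bulk samples, fewer cells with a transcript and less transcript per cell cannot be told apart.

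**Figure D1:**
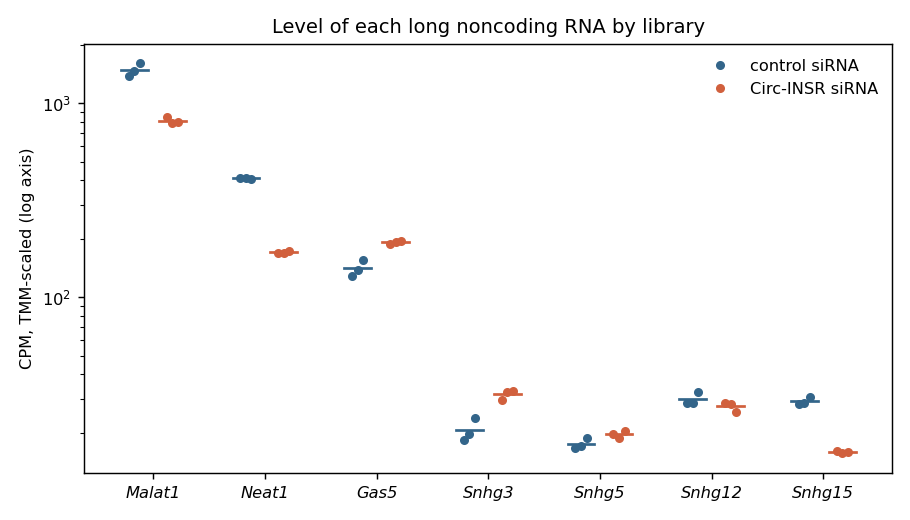
CPM (TMM-scaled, log axis) of the 7 measured long noncoding RNAs, with 1 point per library and a line at the mean of 3 libraries per group. Neat1 lies near 411 CPM in the controls, against 170 CPM with Circ-INSR siRNA, and the groups overlap for Snhg5 and Snhg12 but not for the other members.

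Malat1 (ENSMUSG00000092341, mm10 chromosome 19, 5795690 to 5802672, minus strand, a single long exon in its longest transcript) had 1381, 1459 and 1599.8 CPM in the control libraries. After Circ-INSR siRNA it had 843, 793 and 798 CPM, so every control library was above every Circ-INSR siRNA library. Its log2 fold change was -0.87 (SE 0.05; edgeR adjusted p = 9.76e-08). It took 0.150% of all counts in control and 0.0799% in Circ-INSR siRNA libraries, and by CPM it moved from rank 20 to rank 105 among the genes tested. Control replicate 3 was the highest of the controls, and without it the log2 fold change was -0.80.

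Neat1 (ENSMUSG00000092274, chromosome 19, 5824708 to 5845478, minus strand) lies 22035 bases from Malat1, on the side of its 5′ end. It had 413.6, 411.6 and 408.8 CPM in control libraries and 169.2, 168.2 and 173.0 CPM after Circ-INSR siRNA. The libraries within each group were almost level, and the groups lay far apart. This is a log2 fold change of -1.27 (SE 0.04; edgeR adjusted p = 1.38e-09), and the rank by CPM moved from 334 to 1337. Neat1 is by far the longest of the members. A trend fitted on exonic length and GC content gave -0.198 (log2) for Neat1 in control replicate 3, against 0.068 in each of the other controls. With that trend removed the log2 fold change of Neat1 was -1.32, and the part of the trend in the level of single libraries was not tested further.

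Neat1 had the lower share of its control level of this pair. Within a library, where no scaling between libraries is needed, Neat1 had 0.299, 0.282 and 0.256 counts for each Malat1 count in control and 0.201, 0.212 and 0.217 after Circ-INSR siRNA. The mean log2 ratio changed from -1.84 ± 0.116 to -2.25 ± 0.0573 (SD, n = 3 each), a difference of -0.41. The ratios of the groups did not overlap. In an exact two-sided permutation test p was 0.1, the smallest that 3 against 3 libraries can give.

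A coding gene beside the pair had a smaller log2 fold change. Frmd8, which encodes a FERM domain protein, lies 4224 bases from Neat1 on the same strand and had 117.5 ± 3.19 CPM in control and 114.9 ± 2.66 CPM after Circ-INSR siRNA (log2 fold change -0.03, SE 0.04; edgeR adjusted p = 0.554). The difference between this neighbour and the pair was not tested as such.

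Gas5 (ENSMUSG00000053332, chromosome 1, 161034422 to 161038539, plus strand), a host of C/D box snoRNAs whose spliced RNA accumulates when growth stops or translation is blocked, had 129.4, 138.0 and 154.8 CPM in control libraries. The Circ-INSR siRNA libraries had 188.3, 191.5 and 195.5 CPM, all above the controls. The log2 fold change was 0.45 (SE 0.06; edgeR adjusted p = 5.85e-05), and it was 0.52 without control replicate 3, the highest control. Zbtb37, a zinc finger gene, overlaps Gas5 on the opposite strand and had 8.63 ± 1.18 and 9.22 ± 1.07 CPM (edgeR adjusted p = 0.489).

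Snhg3 (ENSMUSG00000085241, chromosome 4, 132348014 to 132353686, minus strand) hosts the H/ACA box snoRNAs Snora73a and Snora73b. Its control libraries had 18.4, 19.7 and 23.8 CPM and its Circ-INSR siRNA libraries 29.4, 32.4 and 33.0 CPM. The groups did not overlap, although control replicate 3 stood closest to the other group. Its log2 fold change was 0.62 (SE 0.09; edgeR adjusted p = 0.000109), and it ranged from 0.54 to 0.74 over the alternatives, the highest without control replicate 3.

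Snhg3 overlaps the span of Rcc1 on the same strand. How reads shared by both were counted is not given in the sources used here, so both counts are uncertain. Rcc1, the nucleotide exchange factor of the GTPase Ran, moved the other way, from 88.4 ± 2.88 to 66.6 ± 3.42 CPM (log2 fold change -0.41, SE 0.05; edgeR adjusted p = 2.60e-05). Snhg3 had 0.201, 0.229 and 0.270 counts for each Rcc1 count in control libraries and 0.451, 0.506 and 0.468 after Circ-INSR siRNA. This ratio, chosen after its values were seen, was 2.05 times as high in the Circ-INSR siRNA group (exact two-sided permutation p = 0.1, the smallest possible).

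**Figure D2:**
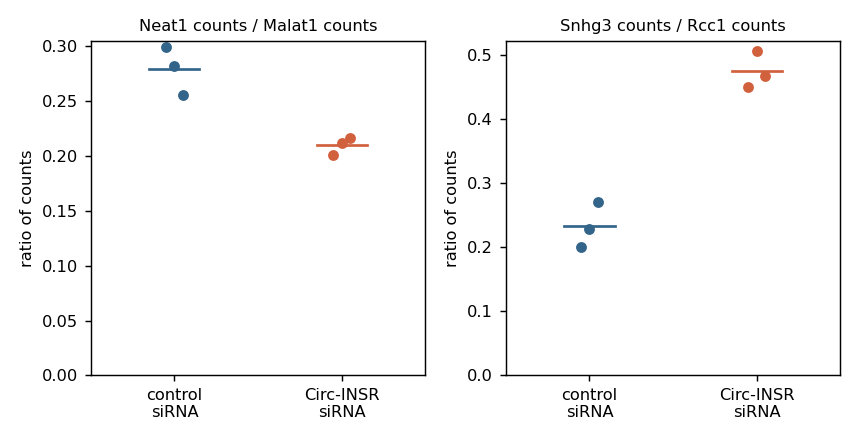
Ratio of raw counts within each library for Neat1 over Malat1 (left) and Snhg3 over Rcc1 (right), with 1 point per library and a line at the mean of 3 libraries. The Neat1 ratio is lower and the Snhg3 ratio higher in every Circ-INSR siRNA library than in any control library.

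Snhg15 (ENSMUSG00000085156, chromosome 11, 6525591 to 6528760, minus strand), host of the H/ACA box snoRNA Snora9, was the one snoRNA host of the set that fell. It had 28.1, 28.6 and 30.7 CPM in control libraries and 16.2, 15.7 and 15.9 CPM after Circ-INSR siRNA, with no overlap. Snhg15 had a log2 fold change of -0.87 (SE 0.06; edgeR adjusted p = 1.48e-07). Of its coding neighbours, Myo1g, an unconventional myosin gene, had 0.334 ± 0.112 and 0.342 ± 0.113 CPM (edgeR adjusted p = 0.930). Ccm2, a scaffold protein gene, had a log2 fold change of -0.14 (SE 0.05; edgeR adjusted p = 0.0220), which did not hold without control replicate 1 or 2 or Circ-INSR siRNA replicate 1 or 2 (adjusted p from 0.059 to 0.112) or with the trend on length and GC content removed (0.468).

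Snhg5 (ENSMUSG00000097195, chromosome 9, 88521050 to 88522929, minus strand), host of the paired snoRNAs Snord50a and Snord50b, had 16.7, 17.2 and 18.9 CPM in control libraries. The Circ-INSR siRNA libraries had 19.7, 18.8 and 20.4 CPM, so 1 of them fell below the highest control. The log2 fold change was 0.16 (SE 0.06; 95% interval 0.02 to 0.30; edgeR adjusted p = 0.0541). It passed the threshold without control replicate 3, at 0.22 (adjusted p = 0.00627), and in 3 other alternatives.

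Snhg12 (ENSMUSG00000086290, chromosome 4, 132308623 to 132311024, plus strand) hosts H/ACA box and C/D box snoRNAs and lies 36989 bases from Snhg3 on the opposite strand. Its values were 28.5, 28.6 and 32.4 CPM in the controls, against 28.6, 28.3 and 25.7 CPM with Circ-INSR siRNA, which overlapped. The log2 fold change was -0.12 (SE 0.07; 95% interval -0.26 to 0.03; edgeR adjusted p = 0.150), so a fall as large as that of Snhg15 lies outside its interval. Trnau1ap, a gene of selenocysteine incorporation that lies 739 bases away, had 39.3 ± 2.83 and 43.4 ± 1.27 CPM (edgeR adjusted p = 0.0551), and a log2 fold change of 0.20 without control replicate 3 (adjusted p = 0.00145). It also passed with no filter on low counts, with the replicate block and with the length and GC trend removed. Rab42, a small GTPase gene 5238 bases away on the other side, fell from 1.33 ± 0.407 to 0.397 ± 0.0685 CPM (log2 fold change -1.74, SE 0.26; edgeR adjusted p = 0.000145).

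**Figure D3:**
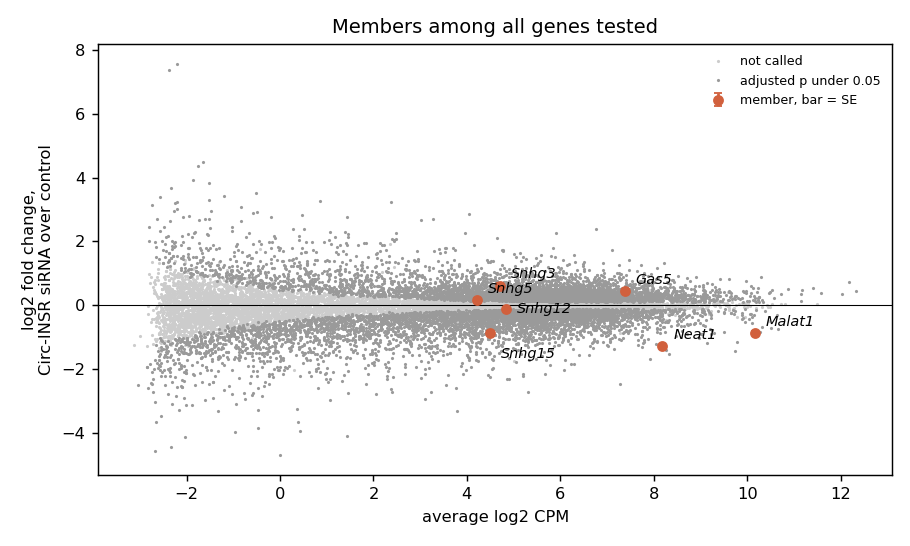
Log2 fold change (Circ-INSR siRNA over control) against average log2 CPM for the 16666 genes tested, with genes at adjusted p under 0.05 in dark grey and the 7 members in orange with bars of 1 SE. Malat1 and Neat1 lie among the most abundant genes and below the main band of genes at their level, at -0.87 and -1.27.

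Summed over Gas5, Snhg3, Snhg5, Snhg12 and Snhg15, the host RNAs had 221, 232 and 261 CPM in the controls, against 282, 287 and 290.5 CPM with Circ-INSR siRNA. The log2 difference was 0.27 (exact two-sided permutation p = 0.1, the smallest possible). Gas5 supplies most of this sum, so it hides the fall of Snhg15.

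To compare levels between genes, CPM was divided by the length of all annotated exons. On this scale Malat1 was the highest in control, at 212 ± 15.9 CPM per kb, above 99% of the genes tested. Gas5 followed at 37.4 ± 3.44 CPM per kb, and then Snhg15, Snhg3 and Neat1 at 21.4 ± 1.04, 20.9 ± 2.87 and 19.8 ± 0.117. The Snhg3 libraries overlapped those of both others, whereas every Snhg15 library was above every Neat1 library. Snhg12 and Snhg5 were the lowest, at 12.4 ± 0.93 and 10.2 ± 0.664 CPM per kb (SD, n = 3 for each value).

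After Circ-INSR siRNA Malat1 and Gas5 were still first and second, at 116 ± 3.97 and 51.0 ± 0.95 CPM per kb. Snhg3 came next at 32.1 ± 1.96. Snhg15, Snhg12 and Snhg5 lay within their spread at 11.7 ± 0.183, 11.5 ± 0.666 and 11.3 ± 0.463, and Neat1 was the lowest at 8.19 ± 0.122. The exonic length of Neat1 is that of its long isoform, so its level per kb is a low estimate if most reads come from the short one.

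Within the spans of the 10 genes, on the same strand, lie 30 annotated snoRNA identifiers, of which 28 were in the count files. None lies in Malat1 or Neat1. A poly(A)-selected library is not made to measure such short RNAs, and 18 of the 28 had a count of 0 in all libraries, including all 8 in Snhg1 and the one in Snhg15. A count of 0 allows a level of up to 3 counts per library, between 0.0389 and 0.05 CPM. Reads at the others may come from the snoRNA or from unspliced host RNA, which gene counts do not separate.

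Only 7 of these snoRNA genes had enough counts to be tested, and 2 were called higher while the other 5 were not called. Beside the 28.5% of all genes called higher, this count is not a result about these snoRNAs. Snora73b, within Snhg3, had 90, 84 and 114 counts in control and 136, 167 and 180 counts in Circ-INSR siRNA libraries (log2 fold change 0.54, SE 0.15; edgeR adjusted p = 0.0108). Snora73a, in the same host, had 29, 21 and 39 against 49, 55 and 50 counts (log2 fold change 0.58, SE 0.25; edgeR adjusted p = 0.0706). Snord87, within Snhg6, had 6, 5 and 12 against 18, 21 and 18 counts (log2 fold change 1.09, SE 0.40; edgeR adjusted p = 0.0368), on few counts.

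Other RNAs of the same kinds were split as well. Of 7 further snoRNA-host RNAs tested, 1 rose and 4 fell, with a median log2 fold change of -0.24 against -0.005 over all genes. Over all genes 28.5% were called in each direction, and over the long noncoding biotypes of GENCODE 7.71% were called higher and 31.7% lower. Snhg18 rose from 10.4 ± 0.409 to 15.9 ± 0.364 CPM (edgeR adjusted p = 6.00e-06), and Snhg20 had a log2 fold change of -0.30 (SE 0.07; adjusted p = 0.00268). Snhg11 fell from 0.242 ± 0.0448 to 0.0891 ± 0.0262 CPM, a level of a few counts. The number called lower was 2 when control replicate 1 or Circ-INSR siRNA replicate 1 was left out, and also when 1 CPM in 3 libraries was required.

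Of 14 other long noncoding RNAs tested, 1 rose and 6 fell, with a median of -0.25, beside the same 7.71% higher and 31.7% lower and a median of -0.30 for the long noncoding biotypes. H19, an imprinted fetal RNA, rose from 25.7 ± 2.42 to 89.4 ± 3.42 CPM (log2 fold change 1.80, SE 0.07; edgeR adjusted p = 3.20e-09). Pvt1, the neighbour of Myc, fell from 22.9 ± 0.997 to 11.5 ± 0.34 CPM (edgeR adjusted p = 9.76e-08), and Mir22hg, a microRNA host, changed by -0.68 on the log2 scale (SE 0.08; adjusted p = 1.26e-05). Without control replicate 3, 2 of these RNAs were called higher.

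The lists of protein genes that follow are each to be read beside the 28.5% of all genes called higher, the 28.5% called lower and the median of -0.005. Of 20 genes of paraspeckle proteins 16 rose and 2 fell (median log2 fold change 0.26). Pspc1, a paraspeckle core protein gene, rose from 29.1 ± 2.39 to 54.6 ± 1.28 CPM (log2 fold change 0.91, SE 0.06; edgeR adjusted p = 1.85e-07), and Hnrnpa1, an RNA-binding protein gene, by 0.46 (SE 0.04). Zc3h6, a zinc finger gene, changed by -1.09 (SE 0.09). Nono, whose protein pairs with SFPQ, changed by -0.13 (SE 0.04; edgeR adjusted p = 0.0150), a call lost without control replicate 2 (adjusted p = 0.0541) or Circ-INSR siRNA replicate 1 (0.108).

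Of 22 genes of nuclear speckle proteins 11 rose and 3 fell (median 0.22), and 8 were not called. U2af2, a splice site recognition factor, rose by 0.38 (SE 0.04) and Rnps1, which deposits on spliced RNA, by 0.35 (SE 0.04). The splicing kinase genes Clk4 and Clk1 changed by -0.41 (SE 0.06) and -0.21 (SE 0.06). With total-count scaling the falls numbered 4 for paraspeckle and 5 for speckle genes, and they were also 5 for speckle genes with the 1 CPM filter or the replicate block.

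Of 8 core proteins of snoRNA particles 7 rose and 1 fell (median 0.30), and of 11 assembly factors tested 10 rose and 0 fell (median 0.31). Fbl, the methyltransferase fibrillarin of C/D box particles, rose from 128.8 ± 3.47 to 179.2 ± 5.31 CPM, and Nop10, of H/ACA box particles, from 25.3 ± 1.49 to 37.4 ± 2.41 CPM. Dkc1, the pseudouridine synthase dyskerin, fell from 122.1 ± 5.61 to 91.9 ± 3.10 CPM (log2 fold change -0.41, SE 0.05; edgeR adjusted p = 1.98e-05). Among assembly factors Naf1 rose by 0.74 (SE 0.06) and Nolc1 by 0.55 (SE 0.04). At an unadjusted p under 0.05, 1 assembly factor was lower. The number called lower was also 1 with upper quartile or total-count scaling, the 1 CPM filter, the replicate block, halved counts, the length and GC trend removed, or control replicate 1 left out. It was 0 by limma-voom and DESeq2.

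Of 42 protein-coding genes that host snoRNAs 27 rose and 5 fell (median 0.18), a list that shares Dkc1 and Nop56 with the core proteins. Rps20, a ribosomal protein gene, rose from 169.6 ± 9.61 to 423.8 ± 13.4 CPM and Hspa8, a cytosolic chaperone gene, by 0.47 (SE 0.03), while Tnpo2, a nuclear import receptor gene, changed by -0.45 (SE 0.05). Ribosomal protein genes share reads with processed pseudogenes, which limits their counts.

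Of 17 genes of nonsense-mediated decay factors, the pathway known to degrade spliced Gas5 and Snhg RNAs, 10 rose and 3 fell (median 0.18). Magoh and Casc3, of the exon junction complex, rose by 0.60 (SE 0.06) and 0.42 (SE 0.04), and Nbas and Upf3b changed by -0.54 (SE 0.08) and -0.30 (SE 0.07). Of 19 genes of the nuclear exosome and RNA decay tested, 5 rose and 1 fell (median 0.13), a share called higher that is near that of all genes. Dis3, a catalytic subunit, rose by 0.41 (SE 0.04) and Exosc3 by 0.55 (SE 0.06), and the cofactor gene Zcchc7 changed by -0.19 (SE 0.05). Without control replicate 3, 10 exosome and decay genes were called higher and 2 lower, and with the length and GC trend removed 9 higher and 3 lower. The number called lower was 2 without control replicate 1, with upper quartile or total-count scaling, the 1 CPM filter, the replicate block or halved counts.

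**Figure D4:**
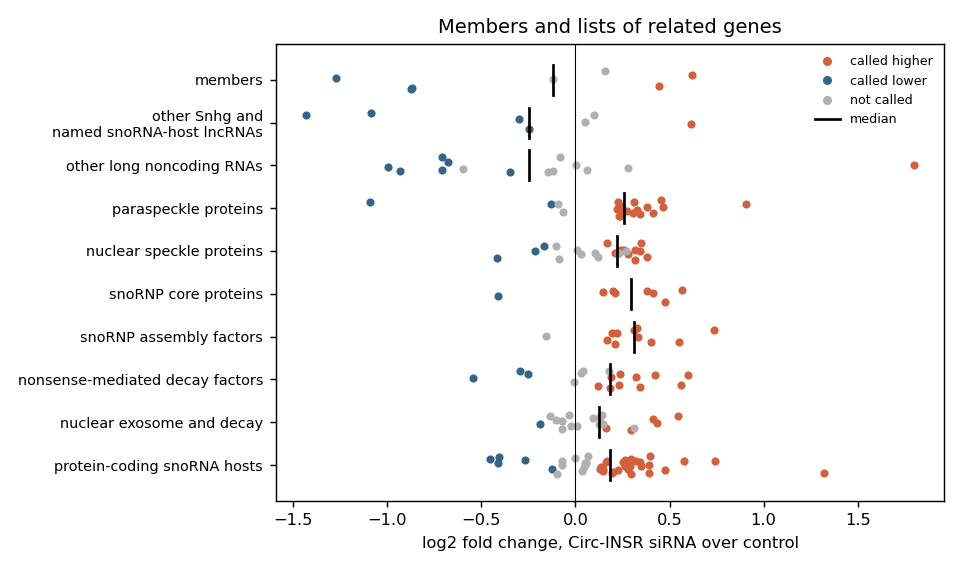
Log2 fold change (Circ-INSR siRNA over control) of each tested gene of the members and of 9 lists of related genes, with 1 point per gene coloured by its call and a black line at the median. The members and the 2 other lists of noncoding RNAs have medians below 0 and the lists of protein genes medians above 0, from 0.13 to 0.31.

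Over all genes of the GENCODE long noncoding biotypes, a class added after the members' values were seen, 7.71% of 1155 genes tested were called higher and 31.7% lower. Their median log2 fold change was -0.30. Gas5 and Snhg3 are among the 89 called higher, and Malat1, Neat1 and Snhg15 among the 366 called lower.

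By distance between log2 CPM deviations over the 6 libraries, the genes nearest to Malat1 were Thyn1 (0.07 log2 units), Snhg15 (0.08) and Ccng1 (0.09). Malat1 and Snhg15 are on different chromosomes and differ widely in level, and their log2 fold changes were both -0.87. Nearest to Neat1 were Iffo1 (0.08), P2rx4 (0.08) and Hmox1 (0.09), and nearest to Gas5 were Tceal8 (0.03), Tmx1 (0.03) and Nap1l1 (0.04). The difference between the groups makes up most of each profile, so many genes with like fold changes lie close by.

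Total counts lay between 60024750 and 77037474 and were 1.19 times as high on average in the Circ-INSR siRNA group. Cardiomyocyte markers were present in control, with 1564 ± 131 CPM of Myh6, 2021 ± 45.3 CPM of Tnnt2 and 16.6 ± 0.357 CPM of Nppa. Of 9 such markers 5 rose and 2 fell, with Tnnt2 among those that fell. Of 5 endothelial markers Kdr and Tek rose, and the summed level went from between 27.2 and 30.7 to between 82.6 and 86.4 CPM, with Cdh5 and Vwf under 0.1 CPM on average in both groups. Fibroblast markers summed to between 172 and 190 CPM in control and between 133 and 150 CPM after Circ-INSR siRNA, with Dcn and Lum under 0.1 CPM. Col1a1 made up most of this sum and fell from 168.7 to 119.5 CPM on average, while Col3a1 and Col1a2 rose by 0.87 and 1.67 on the log2 scale. Leukocyte markers summed to between 6.31 and 6.58 and then between 3.75 and 4.21 CPM, with Ptprc under 0.1 CPM and Adgre1 at 0. Of these, 3 were called lower, among them Cd3e and Cd79a, which lay under 1 CPM on average in both groups. Only 1 was called lower without Circ-INSR siRNA replicate 1 or 2, with the 1 CPM filter or by DESeq2. The part of these markers in the values of the long noncoding RNAs was not tested.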

How the data were processed

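The authors deposited raw counts per Ensembl gene, 1 table for each of 6 libraries, with no normalization. The genome build was mm10, and STAR 2.5.0c and featureCounts 1.6.4 are among the tools listed, per the submitters' processing notes. Which annotation release, strand setting and treatment of shared reads went into the counts is not given in the sources used here. More genes had 2 counts than had 1 in each table, a pattern that arises if both mates of a pair are counted, so an alternative used halved counts. Symbols and positions came from GENCODE M21, which holds 36308 of the identifiers (95.33%).

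The comparison used edgeR 4.0.16 under R 4.3.3: filterByExpr (minimum count 10, minimum total 15), TMM factors (0.983 to 1.03), robust quasi-likelihood F-test on group alone, and Benjamini-Hochberg adjustment over 16666 genes at 0.05. Each SE was obtained from the fold change and its F value. The steps were tested on simulated data in which few genes changed, equally in both directions. That setting does not check the scaling or the calls where as many genes change as here. Permutation tests used scipy 1.17.1. Named genes are the members, up to 2 called higher and 2 called lower of each list by smallest adjusted p, genes next to a member within 100 kb (some are not reported here), and the 3 genes nearest to Malat1, Neat1 and Gas5 by distance of log2 CPM (0.5 added). The members and lists were chosen with earlier results of these data known. Alternatives were other scalings, filters and tests (limma-voom 3.58.1, DESeq2 1.42.0), each library left out, a replicate block, halved counts and a fit with the length and GC trend taken out.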

Additional observations from a re-analysis of the deposited data

How the results depend on the processing

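Malat1, Neat1, Gas5, Snhg3 and Snhg15 kept their direction and stayed past the threshold, and Snhg12 stayed short of it, in all 16 alternatives run. The log2 fold change ranged from -0.92 to -0.80 for Malat1, -1.32 to -1.26 for Neat1, 0.39 to 0.52 for Gas5, 0.54 to 0.74 for Snhg3, -0.92 to -0.78 for Snhg15 and -0.16 to -0.05 for Snhg12. Snhg5 passed in 4 of them: without control replicate 3, with no filter on low counts (adjusted p = 0.0486), with the replicate block (0.0348) and once the length and GC trend was taken out (0.0239). Members called higher then numbered 3 in place of 2, and the 3 called lower did not change. With the replicate block 4968 genes were called higher and 4900 lower, against 4750 and 4745 without it. Same-numbered libraries of the groups deviated together only weakly, with correlations across genes of 0.0428, 0.144 and 0.116, so they were treated as sharing only a number. Each library still correlated best with its own number, a hint from the data and not from the design. The difference in the Neat1 to Malat1 ratio ranged from -0.47 to -0.36 and that in the summed hosts from 0.22 to 0.34. The reads behind most snoRNAs within the members were too few for a test.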

Other observations

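Trp53cor1 and Rmrp, named here after their values were seen, are among the 6 of 14 other long noncoding RNAs already counted above as fallen. Trp53cor1, also known as lincRNA-p21, fell from 10.2 ± 1.17 to 6.26 ± 0.434 CPM (SD, n = 3 each; log2 fold change -0.71, SE 0.10; edgeR adjusted p = 6.62e-05). Rmrp, the RNA of the RNase MRP enzyme, fell from 1.46 ± 0.26 to 0.761 ± 0.0878 CPM (log2 fold change -0.93, SE 0.19; edgeR adjusted p = 0.00147). How evenly poly(A)-selected libraries capture Rmrp was not tested. These falls stand beside 28.5% of all genes, and 31.7% of the long noncoding biotypes, called lower.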
